A study of Drosophila melanogaster with 12 samples.

Results

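The 10 antimicrobial peptide genes AttA, AttB, AttC, AttD, DptA, DptB, Dro, Drs, Mtk and CecA1 were described in Malpighian tubules, the excretory organ of insects, of Drosophila melanogaster. They were taken by name, found by FlyBase identifier, and are 10 of the 13919 genes in the files. RNA came from females aged 6 days, kept at 20 °C with 14 h of light. The genotypes were the F1 hybrids SU26xSU58, SU26xZI418N and SU58xZI418N and their parental lines, ZI418N from Zambia and SU58 and SU26 from Sweden. Each genotype had 2 libraries, described as biological replicates, and no infection or other immune treatment is named in the labels. Nothing in the labels says that the replicates came from separate rearings, so p-values measure the spread between these libraries.

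Antimicrobial peptides are small secreted proteins that kill bacteria or fungi. In flies their genes are induced mainly through the Toll route, which is switched on by the ligand Spätzle, and the IMD route, which is switched on when peptidoglycan recognition proteins bind bacterial cell wall. The tubule is known to mount an IMD response of its own, and the fat body and blood cells (hemocytes) are other main sources of these peptides. Attacins (AttA to AttD) and diptericins (DptA, DptB) act mainly on Gram-negative bacteria and are classical IMD targets, as are drosocin (Dro) and the cecropin CecA1. Drosomycin (Drs) is an antifungal peptide and the classical Toll target, and metchnikowin (Mtk) responds to both routes.

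By Ensembl's BDGP6 annotation, whose build may differ from that of the authors, all 10 genes are transcribed from the forward strand. Drs lies at 3L 3369556 to 3369942 as 1 exon, AttD at 3R 17625268 to 17626086 and CecA1 at 3R 30210874 to 30211273. The other 7 lie on 2R. Dro, AttA and AttB are neighbours there (14745961 to 14746714, 14747362 to 14748215 and 14749223 to 14750165), and so are DptA and DptB (18865765 to 18866260 and 18867391 to 18867895). AttA and AttB are known to be near-identical copies, so reads may have been split between them in either direction. Exons of the opposite-strand genes CG4744 and CG43109 share 53 bases with AttC and 48 bases with DptB. These partners had at most 3 and 9 counts in any library, and whether counting used strand is not given in the sources used here. Mtk overlaps the same-strand gene Stacl (29 to 100 counts per library), with 0 exon bases shared. Any part of Stacl in the Mtk counts was not tested.

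Total counts per library ranged from 30834175 to 43479929. Levels are in CPM, the counts scaled to the size of their library with TMM factors, so that 3 counts corresponded to between 0.0692 and 0.0991 CPM depending on the library. SU26xZI418N replicate 2 and SU58 replicate 1 carried eggshell and germ line transcripts (15 markers summed to 666.4 and 313.5 CPM, against 2.39 to 34.1 CPM in the other 10 libraries). Their part in the results below was not tested, and values without both are given for the members whose call changed. In bulk RNA fewer cells of a type cannot be told apart from less RNA per cell. Markers of the tubule were found in every library, at levels that differed widely between genes. The principal cell gene Vha55 stood at 2940 CPM or more and the stellate cell gene ClC-a at 225 CPM or more. Lower levels were found for NKCC of the principal cells (4.86 to 26.9 CPM) and tio of the stellate cells (4.90 to 7.58 CPM).

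Drs was by far the most abundant of the 10 genes in all 12 libraries. It took from 58.6% of their summed counts in SU26 replicate 1 (exact 95% binomial interval 57.1 to 60.2%) to 99.6% in ZI418N replicate 1 (99.5 to 99.8%), where the intervals cover counting error only. Per length, Drs averaged between 155 CPM per kb in SU58 and 664 CPM per kb in ZI418N. No other member averaged above 15 CPM per kb in any genotype, the mean of AttD in SU26. The other 9 genes summed to 7.64 and 3.22 CPM in SU26xSU58, between 0.755 and 1.63 CPM in the 6 libraries of ZI418N and its hybrids and 0.672 and 2.45 CPM in SU58, against 55.5 and 12.7 CPM in SU26. By genotype means Drs was highest in ZI418N and its hybrids, and the sum of the others was highest in SU26.

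**Figure D1:**
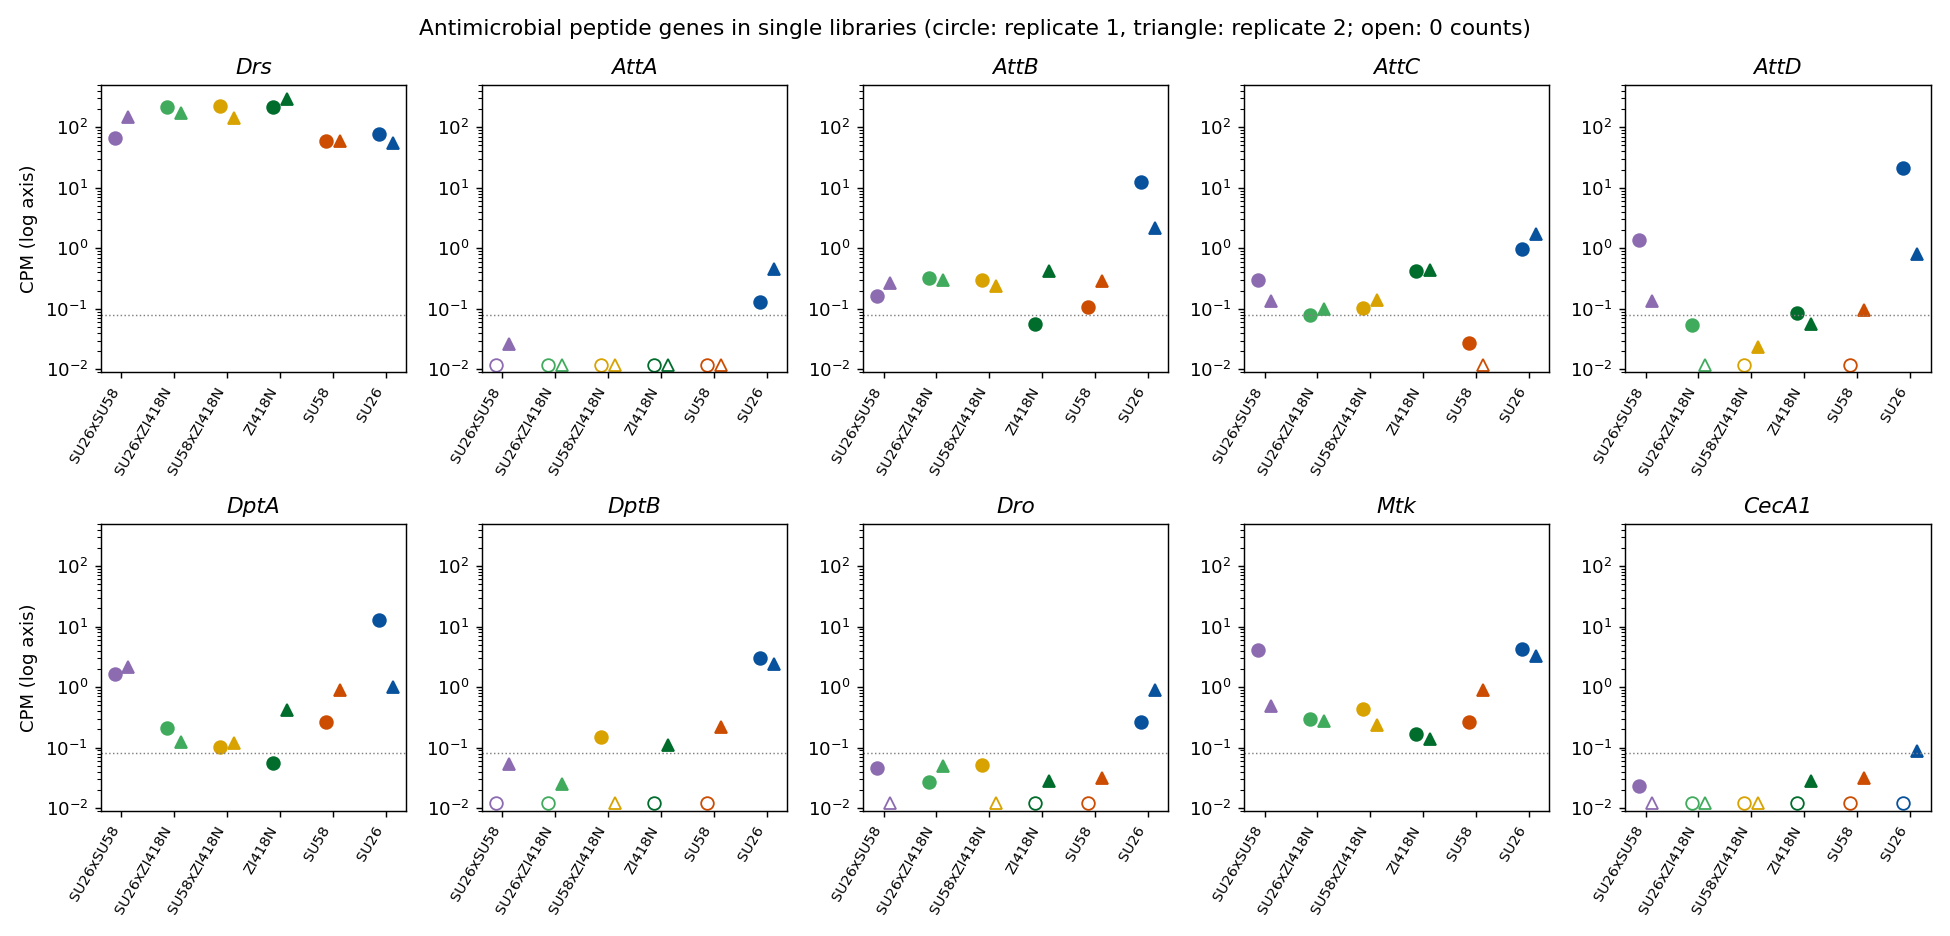
CPM of each gene in each library, on a log axis with the same range in every panel. Circles are replicate 1, triangles replicate 2 and open symbols 0 counts, and the dotted line is the level of 3 counts in a library of median size. Drs lies between 54.4 and 296 CPM throughout, whereas AttB, AttC and DptB are highest in both SU26 libraries and CecA1 is at 3 counts or fewer in all libraries.

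Drs, whose protein acts on fungi, stood at 66.0 and 149 CPM in SU26xSU58, 218 and 174 CPM in SU26xZI418N, 228 and 142 CPM in SU58xZI418N and 218 and 296 CPM in ZI418N, against 59.3 and 60.3 CPM in SU58 and 78.7 and 54.4 CPM in SU26. ZI418N and both of its hybrids lay above all SU58 and SU26 libraries, and SU26xSU58 overlapped SU26. The order of the means was ZI418N (257 ± 55.3 CPM), SU26xZI418N (196 ± 31.0 CPM), SU58xZI418N (185 ± 61.0 CPM), SU26xSU58 (107 ± 58.7 CPM), SU26 (66.6 ± 17.2 CPM) and SU58 (59.8 ± 0.736 CPM; SD, n = 2 each). Each genotype overlapped the next one in this order, so that only genotypes further apart were separated.

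The question put by the 3 pairs of parental lines was how expression differs within and between populations. As ZI418N was the only Zambian line, a difference between populations cannot be told apart from one between single lines. Drs was 3.86-fold higher in ZI418N than in SU26 (log2 fold change 1.95 ± 0.38, with its approximate SE; adjusted p = 0.0061 by edgeR's quasi-likelihood test) and 4.3-fold higher than in SU58 (2.10 ± 0.38, adjusted p = 0.00567). Between SU58 and SU26 it did not pass (-0.15 ± 0.37, adjusted p = 0.823). The call against SU26 was lost without SU26 replicate 2 (1.71, adjusted p = 0.0569). That against SU58 was lost without either SU58 library (2.09 and 2.12, adjusted p = 0.0554 and 0.0539) and without SU58 replicate 1 and SU26xZI418N replicate 2 together (adjusted p = 0.0577).

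In both hybrids with a Zambian parent, the mean of Drs lay between the means of the parents. The gene was 2.95-fold higher in SU26xZI418N than in SU26 (log2 fold change 1.56 ± 0.38, adjusted p = 0.0234), a call that was lost without SU26 replicate 2 (1.32, adjusted p = 0.145) or SU26xZI418N replicate 2 (1.72, adjusted p = 0.0529). In SU58xZI418N it stood 3.1-fold above SU58 (1.63 ± 0.38) and did not pass by edgeR (adjusted p = 0.0629), while it passed by DESeq2 (adjusted p = 0.000119) and by edgeR without SU26xSU58 replicate 1 or 2 (adjusted p = 0.0255 and 0.0251). Against the mean of the parents on the log2 scale, Drs stood at 0.77 ± 0.31 in SU26xSU58, 0.59 ± 0.31 in SU26xZI418N and 0.58 ± 0.31 in SU58xZI418N, and none of these passed (adjusted p = 0.753, 0.25 and 0.9995 by edgeR). In CPM the SU26xSU58 mean was 107, against 63.2 for the mean of its parents. The ZI418N hybrids stood at 196 and 185 CPM, against 162 and 158 CPM for the means of their parents. Without SU26xSU58 replicate 2 the value of that hybrid against the mean of its parents was 0.06, and against SU26 it was -0.0102 in place of 0.69.

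**Figure D2:**
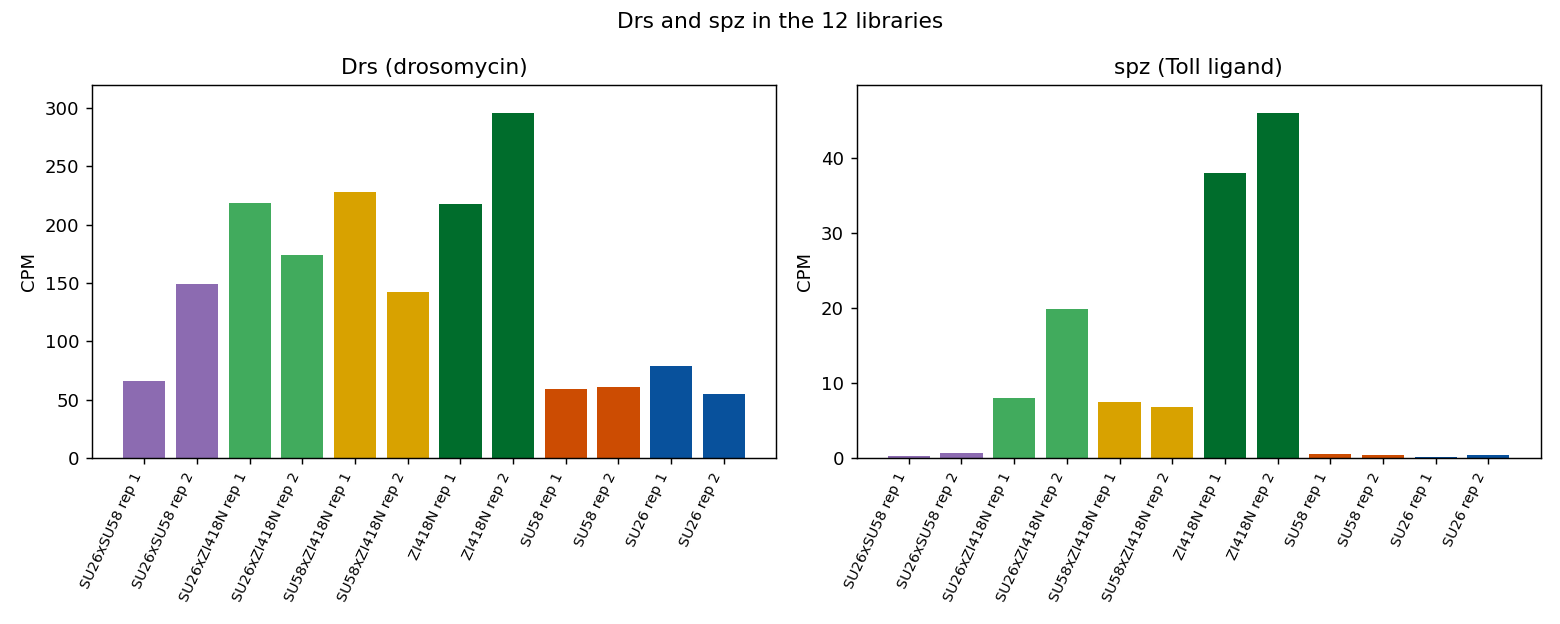
CPM of Drs (left) and of spz, which encodes the Toll ligand (right), as bars for the 12 libraries, with both axes starting at 0. Drs is highest in ZI418N replicate 2 (296 CPM), while ZI418N replicate 1 (218 CPM) stands below SU58xZI418N replicate 1 (228 CPM). For spz both ZI418N libraries are highest (38.1 and 46.1 CPM). The level of spz is below 1 CPM in SU26xSU58, SU58 and SU26, where Drs stands at 54.4 CPM or more.

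The attacin genes had their highest levels in SU26. AttB, the most abundant of the neighbouring copies, stood at 0.162 and 0.266 CPM in SU26xSU58, 0.322 and 0.299 CPM in SU26xZI418N, 0.305 and 0.236 CPM in SU58xZI418N, 0.0568 and 0.415 CPM in ZI418N and 0.108 and 0.286 CPM in SU58, against 12.7 and 2.13 CPM (384 and 74 counts) in SU26. Both SU26 libraries lay above all others, and they differed 5.83-fold from each other. AttA, its copy, had 1 count in SU26xSU58 replicate 2 and 0 counts in the other 9 libraries outside SU26, against 4 and 16 counts in SU26. Over the libraries of a group it was at least 7.04-fold lower in SU58 and at least 7.32-fold lower in ZI418N than in SU26, taking a floor of 3 counts over the group. The larger of the SU26 libraries was replicate 1 for AttB and replicate 2 for AttA.

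AttC stood at 0.3 and 0.133 CPM in SU26xSU58, 0.0806 and 0.0996 CPM in SU26xZI418N, 0.102 and 0.142 CPM in SU58xZI418N, 0.426 and 0.443 CPM in ZI418N and 0.0269 and 0 CPM in SU58, against 0.991 and 1.73 CPM in SU26. It was the only attacin gene of which ZI418N held more than a trace in both libraries, and SU58 had 1 count in all. AttD, another attacin gene, stood at 1.38 and 0.133 CPM in SU26xSU58, 0.0537 and 0 CPM in SU26xZI418N, 0 and 0.0236 CPM in SU58xZI418N, 0.0851 and 0.0554 CPM in ZI418N and 0 and 0.0954 CPM in SU58, against 21.4 and 0.807 CPM in SU26. SU26 replicate 1 had 649 of its 753 counts over all libraries, and SU26xSU58 replicate 1 stood above SU26 replicate 2, so that these genotypes overlapped.

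The diptericin genes differed from each other in SU26xSU58. DptA stood at 1.62 and 2.13 CPM in SU26xSU58, 0.215 and 0.124 CPM in SU26xZI418N, 0.102 and 0.118 CPM in SU58xZI418N, 0.0568 and 0.415 CPM in ZI418N and 0.269 and 0.89 CPM in SU58, against 12.7 and 1.01 CPM in SU26. The hybrid SU26xSU58 lay between the SU26 libraries. DptB stood at 0 and 0.0532 CPM in SU26xSU58, 0 and 0.0249 CPM in SU26xZI418N, 0.153 and 0 CPM in SU58xZI418N, 0 and 0.111 CPM in ZI418N and 0 and 0.223 CPM in SU58, against 3.04 and 2.36 CPM in SU26. DptB had at most 7 counts in any library outside SU26, against 92 and 82 counts in SU26, so that SU26 held 174 of its 194 counts.

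Metchnikowin and drosocin were also highest in SU26. Mtk stood at 4.11 and 0.479 CPM in SU26xSU58, 0.296 and 0.274 CPM in SU26xZI418N, 0.432 and 0.236 CPM in SU58xZI418N, 0.17 and 0.138 CPM in ZI418N and 0.269 and 0.89 CPM in SU58, against 4.26 and 3.23 CPM in SU26. SU26xSU58 replicate 1 reached the SU26 level and its replicate 2 did not. Dro had at most 2 counts in each library outside SU26, against 8 and 31 counts in SU26 (0.264 and 0.893 CPM). CecA1 had 1 count each in SU26xSU58 replicate 1, ZI418N replicate 2 and SU58 replicate 2, 3 counts in SU26 replicate 2 and 0 elsewhere, so that no difference was detectable at this depth.

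Of the 10 genes, 7 passed the filter on low counts, which asked for about 0.269 CPM in 2 libraries, and AttA, Dro and CecA1 did not. Outside SU26, 0 libraries reached that minimum for DptB and 1 did for AttD. These were therefore tested only through the libraries in which they were high. Their calls against SU26 and among the 6 genotypes carry that choice. Nothing is therefore read from the counts of members called among the genotypes, or lower than in SU26, given below. A difference among the 6 genotypes was called for each of the 7 tested genes, against 26.6% of the 9302 genes tested, with adjusted p from 0.0017 for AttC to 0.0184 for Mtk. The AttC call held under all 18 alternatives. Without SU26 replicate 1 those of AttB (adjusted p = 0.0677), AttD (0.0718), DptB (0.0667) and Mtk (0.0599) were lost. DptB and Mtk also missed without SU26 replicate 2 (0.0559 and 0.053), and Mtk without ZI418N replicate 1 or 2 (0.0551 and 0.0564). Without SU58 replicate 1 and SU26xZI418N replicate 2 together, DptA, Drs and Mtk missed (0.0561, 0.0561 and 0.0551).

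In SU58, 4 of the members were lower than in SU26 and 0 were higher, against 9.56% lower and 8.06% higher (17.6% in all) of the genes tested. The log2 fold change was -6.26 ± 0.77 for AttC (adjusted p = 0.00102), -5.23 ± 1.03 for AttB (adjusted p = 0.00962), -7.86 ± 1.93 for AttD (adjusted p = 0.0234) and -4.63 ± 1.34 for DptB (adjusted p = 0.0432). With so few counts in SU58, ratios of summed counts are also given, with exact 95% intervals that cover counting error only. They leave out the spread between replicates, such as the 649 and 28 counts of AttD in SU26. SU26 exceeded SU58 by 95.1-fold for AttC (16.6 to 3796, from 1 count in SU58), by 238-fold for AttD (81.2 to 1159, from 3 counts) and by 26.3-fold for DptB (12.5 to 66.3, from 7 counts). DptA and Mtk had log2 fold changes of -3.57 ± 1.13 and -2.70 ± 0.88 and did not pass by edgeR (adjusted p = 0.0589 and 0.0667), but passed by DESeq2 (adjusted p = 0.00445 and 0.0153).

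Among these calls only that of AttC was kept when any of the 12 libraries was left out. Without SU58 replicate 1 or 2, AttB (adjusted p = 0.103 and 0.0571), AttD (0.174 and 0.106) and DptB (0.257 and 0.0781) were lost. AttD was also lost without SU26 replicate 1 (-4.07, adjusted p = 0.14). DptB was lost without SU26 replicate 1 or 2 (0.122 and 0.123), ZI418N replicate 1 or 2 (0.061 and 0.06) and SU26xSU58 replicate 1 or 2 (0.0625 and 0.0627). Calls were gained for DptA without SU26 replicate 2 (adjusted p = 0.0187) and for Mtk without SU26xSU58 replicate 1 or 2 (0.0171 and 0.0153). The value for DptA was -0.81 without SU26 replicate 1 (adjusted p = 0.628). Without SU58 replicate 1 and SU26xZI418N replicate 2 together, AttB, AttD and DptB were lost (adjusted p = 0.0931, 0.162 and 0.154).

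In ZI418N, 6 members were lower than in SU26 and 1, Drs, was higher, against 13.1% lower and 10.9% higher of the genes tested (24.0% in all). The log2 fold change was -4.95 ± 1.01 for AttB (adjusted p = 0.00723), -4.57 ± 1.00 for Mtk (adjusted p = 0.0104) and -4.83 ± 1.22 for DptA (adjusted p = 0.0196). It was -7.24 ± 1.82 for AttD (adjusted p = 0.0195), -5.51 ± 1.43 for DptB (adjusted p = 0.0224) and -1.64 ± 0.51 for AttC (adjusted p = 0.0451). AttC changed least of the 6, from its 31 counts in ZI418N against 90 in SU26, and its call was lost in 14 of 19 alternatives (adjusted p up to 0.285). Without ZI418N replicate 1, AttB (adjusted p = 0.051), AttC (0.215), AttD (0.123), DptA (0.125), DptB (0.156) and Mtk (0.0743) all missed. Without ZI418N replicate 2, AttC (0.178), AttD (0.121), DptB (0.0654) and Mtk (0.0763) did.

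Which SU26 library was left out also mattered against ZI418N. Without SU26 replicate 1, AttD (-3.46, adjusted p = 0.156), DptA (-2.08, adjusted p = 0.173), DptB (0.073) and AttC (0.0607) were lost, and without replicate 2, DptB (0.0676), AttC (0.285) and Drs were. When genes of low counts were kept, Dro was called in SU58 (-5.02 ± 1.34, adjusted p = 0.0319) and in ZI418N (-5.08 ± 1.33, adjusted p = 0.0227) against SU26. AttA (adjusted p = 0.0739 and 0.0585) and CecA1 (0.74 and 0.697) were not. With 1 library left out the filter let AttA and Dro through in most cases, and AttA was then called in ZI418N against SU26 without SU26xZI418N replicate 1 or 2 (adjusted p = 0.0484 and 0.0469).

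Between ZI418N and SU58, 2 members were higher in ZI418N and 0 lower, against 7.58% and 9.33% of the genes tested (16.9% in all). They were Drs, described above, and AttC (log2 fold change 4.62 ± 0.82, adjusted p = 0.00482), whose call held in all 19 alternatives (adjusted p up to 0.0444). It had 31 counts in ZI418N against 1 count in SU58, whose level was 0.0335 times that of ZI418N in summed counts (exact 95% counting interval 0.000823 to 0.201). The remaining members had log2 fold changes from -1.87 for Mtk (adjusted p = 0.248) to 0.62 for AttD (adjusted p = 0.908).

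**Figure D3:**
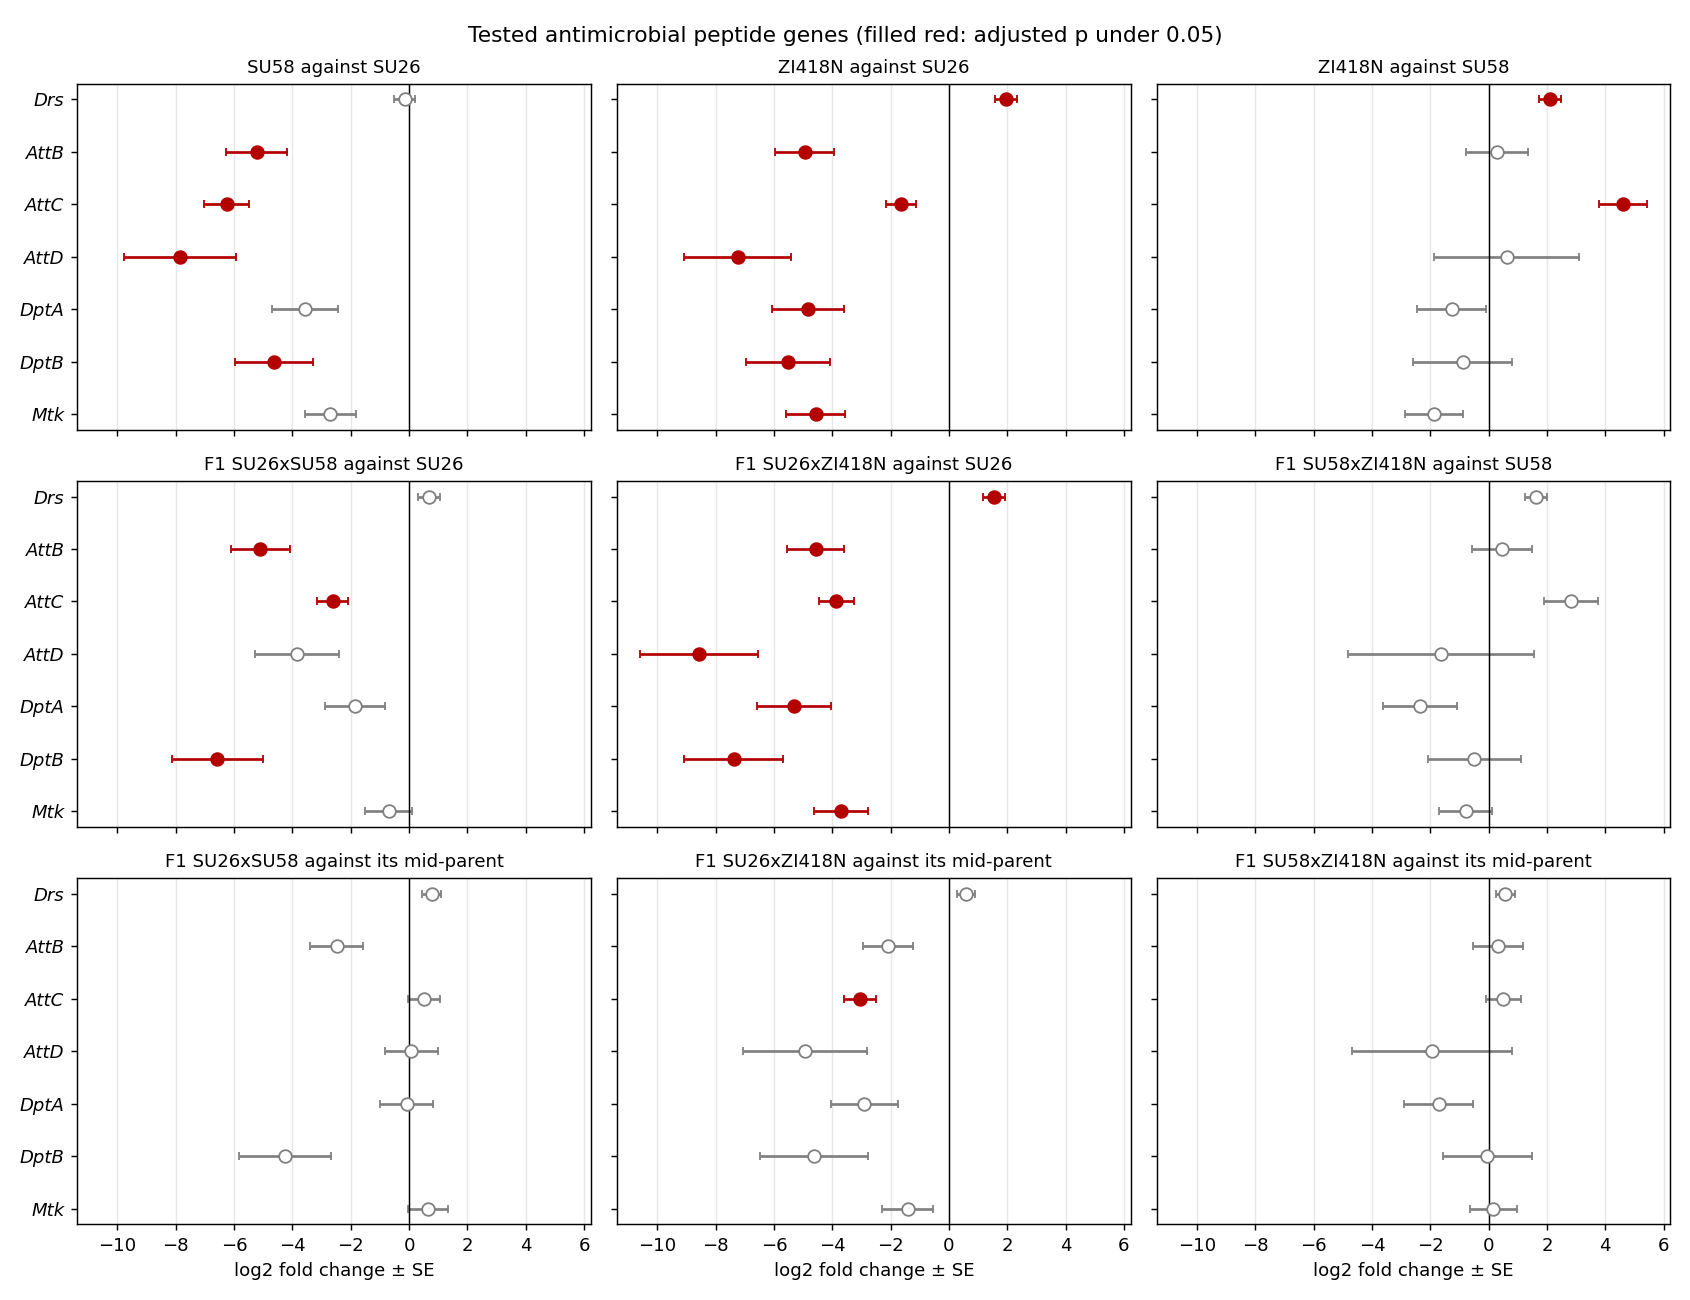
Log2 fold changes with approximate SE for the 7 tested genes, in the pairs of parental lines (top), hybrids against a parent (middle) and hybrids against the mean of their parents on the log2 scale (bottom); filled red points have an adjusted p under 0.05 by edgeR. In ZI418N and in SU26xZI418N against SU26, 6 genes lie left of 0 and Drs lies right of it.

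In SU26xZI418N, 6 members were lower than in SU26 and Drs was higher, against 11.5% and 11.2% of the genes tested (22.7% in all). Of 7 tested hemocyte markers, 4 were lower and 0 higher in the same comparison (median log2 fold change -2.12), and 2 were lower and 0 higher than the mean of the parents. In SU58, ZI418N and SU26xSU58 against SU26, 0 of these markers were called (medians -0.64, -0.77 and -1.09), against 17.6%, 24.0% and 4.54% of the genes tested. Their part in the result was not tested. The log2 fold change was -3.87 ± 0.60 for AttC (adjusted p = 0.00444), -4.56 ± 0.98 for AttB (adjusted p = 0.0158), -5.31 ± 1.26 for DptA (adjusted p = 0.0217) and -3.70 ± 0.93 for Mtk (adjusted p = 0.0268). DptB and AttD, with 1 and 2 counts in this hybrid, had adjusted p = 0.0199 and 0.0215. Of the 6, only AttC was kept when SU26xZI418N replicate 2 was left out, when the adjusted p of the others ran from 0.0643 for DptB to 0.117 for Mtk. Without SU26 replicate 1, AttB (0.0697), AttD (0.094), DptA (0.11), DptB (0.0548) and Mtk (0.0723) were lost, and without SU26 replicate 2 DptB (0.0722) and Mtk (0.0832). Mtk was also lost without SU26xZI418N replicate 1 (0.0579). Without SU58 replicate 1 and SU26xZI418N replicate 2 together, AttC alone of the 7 was kept, with adjusted p from 0.0683 for DptB to 0.153 for AttD among the rest.

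In SU26xSU58, 3 members were lower than in SU26 and 0 higher, against 2.25% and 2.29% of the genes tested (4.54% in all). They were AttB (fell by 5.10 ± 1.01 on the log2 scale, adjusted p = 0.0257), AttC (fell by 2.62 ± 0.54, adjusted p = 0.0286) and DptB, with 2 counts in the hybrid against 174 in SU26 (adjusted p = 0.0492). AttD, DptA and Mtk stood at -3.85, -1.87 and -0.70 and did not pass (adjusted p = 0.171, 0.372 and 0.714). For these 3 genes at least 1 SU26xSU58 library lay within the range of the SU26 libraries. AttB was lost without SU26 replicate 1 (adjusted p = 0.0963) or SU26xSU58 replicate 1 or 2 (0.192 and 0.0973). AttC and DptB were each lost without either SU26 library (0.0583 and 0.179 for AttC, 0.122 and 0.151 for DptB), either SU26xSU58 library (0.109 and 0.139, 0.301 and 0.131), either ZI418N library (0.0628 and 0.0621, 0.0707 and 0.0695) or either SU58xZI418N library (0.0606 and 0.0605, 0.0606 and 0.0603). DptB was further lost without either SU58 library (0.065 and 0.0656) and with the replicate number as a block (0.0592).

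No member was called between SU58xZI418N and SU58 by edgeR (0 of 7, with 2 at an unadjusted p under 0.05), against 1.48% higher and 1.05% lower (2.54% in all) of the genes tested, and DESeq2 called 1, Drs. These comparisons share libraries: SU58, ZI418N, SU26xSU58 and SU26xZI418N were all set against the same 2 SU26 libraries.

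Against the mean of their parents on the log2 scale, hybrids asked whether expression was additive on that scale. This is the geometric mean of the parents, which lies below their arithmetic mean in CPM where the parents differ. In SU26xZI418N, 1 member was called, against 1.71% lower and 3.29% higher (5% in all). AttC fell by 3.05 ± 0.56 (adjusted p = 0.0442 by edgeR). It stood at 0.0901 ± 0.0134 CPM in the hybrid, against 0.434 ± 0.0124 CPM in ZI418N and 1.36 ± 0.521 CPM in SU26 (SD, n = 2 each). Both hybrid libraries lay below both parents, but they had only 3 and 4 counts of AttC, where counting error limits precision. The call was lost in 13 of 18 alternatives (adjusted p up to 0.295). Leaving out any library other than SU26xZI418N replicate 1 ended it, with adjusted p between 0.0572 and 0.228. AttB stood at -2.09 ± 0.87 and DptA at -2.90 ± 1.15 against the mean of the parents and did not pass (adjusted p = 0.156 and 0.14), nor did AttD and DptB with 2 and 1 counts in the hybrid (adjusted p = 0.164 and 0.142).

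In SU26xSU58 0 of 7 members were called against the mean of the parents by edgeR, with 3 at an unadjusted p under 0.05 and 0 by DESeq2, against 0.108% of the genes tested, all of them higher (0.00% lower). AttB stood at -2.49 ± 0.91, DptB at -4.26 ± 1.57 and DptA at -0.08 ± 0.91. In CPM the DptA mean of this hybrid was 1.87, against 1.99 for the geometric and 3.71 for the arithmetic mean of its parents. In SU58xZI418N 0 of 7 were called by edgeR, with 0 at an unadjusted p under 0.05 and 0 by DESeq2, against 0.376% higher and 0.0108% lower (0.387% in all). The difference between crosses in the deviation from the parents was tested directly and passed for no member (adjusted p at least 0.221 over 21 tests, by edgeR), where 0.151%, 0.0968% and 0.043% of all genes passed in the 3 pairs of crosses. For AttC the deviation in SU26xSU58 lay 3.55 ± 0.77 above that in SU26xZI418N (adjusted p = 0.357).

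The spread between replicates was wide for these genes. The biological coefficient of variation was 104.2% for DptB, 101.1% for AttD, 71.9% for DptA, 60.7% for AttB, 59.0% for Mtk, 33.4% for AttC and 26.4% for Drs, against a median of 14.4% over all tested genes. Between the SU26 libraries, replicate 1 exceeded replicate 2 by 24.9-fold for AttD, 12-fold for DptA and 5.83-fold for AttB (with a prior count of 2), when the median gene differed by 1.15-fold in either direction. Of the 9302 genes 6, 14 and 36 differed more between these libraries. DptB, Mtk and Drs differed by 1.28-fold, 1.32-fold and 1.45-fold in the same direction, and AttC by 1.69-fold in the other. In SU26xSU58, replicate 1 exceeded replicate 2 by 7.69-fold for AttD and 7.81-fold for Mtk, with 27 and 26 genes differing more, while Drs was 2.26-fold lower in replicate 1.

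Of 26 listed peptidoglycan recognition and IMD pathway genes, 22 were tested. In SU58, 4 were higher and 5 lower than in SU26, in ZI418N 1 was higher and 5 lower than in SU26, and in ZI418N 1 was higher and 6 lower than in SU58. Over all genes 17.6%, 24.0% and 16.9% were called in these comparisons. The median log2 fold changes of the list were -0.06, -0.08 and -0.06, against 0.01 over all genes in each case. PGRP-LF, which encodes a receptor that dampens IMD signalling, stood at 5.34 and 4.27 CPM in ZI418N, against 17.1 and 25.3 CPM in SU26, a difference of -2.14 ± 0.21 on the log2 scale (adjusted p = 0.000179). The receptor gene PGRP-LC stood at 60.1 and 61.6 CPM in ZI418N, against 37.5 and 32.1 CPM in SU26 (0.81 ± 0.12, adjusted p = 0.00161). The adaptor gene imd stood at 7.93 and 7.44 CPM in SU58, against 14.4 and 15.01 CPM in SU26 (-0.93 ± 0.11, adjusted p = 0.000728). In ZI418N imd stood at 18.1 and 18.2 CPM and was 2.36-fold higher than in SU58 (adjusted p = 9.82e-05). These calls of PGRP-LF, PGRP-LC and imd held under all 19 alternatives. The transcription factor gene Rel, which acts at the end of the pathway, was between 124.7 and 276.4 CPM in the 12 libraries.

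Of 17 Toll pathway genes, all tested, 2 were higher and 0 lower in ZI418N than in SU26, 1 was higher and 0 lower in ZI418N than in SU58, and 2 were higher and 0 lower in SU58 than in SU26. Their median log2 fold changes were 0.3, 0.23 and 0.1, against 0.01 over all genes. These counts are below the shares of all genes called (24.0%, 16.9% and 17.6%). The ligand gene spz stood at 7.93 and 19.9 CPM in SU26xZI418N, 7.45 and 6.82 CPM in SU58xZI418N and 38.1 and 46.1 CPM in ZI418N, against 0.511 and 0.382 CPM in SU58 and 0.165 and 0.403 CPM in SU26. SU26xSU58 had 0.254 and 0.585 CPM. Every library with a Zambian parent was thus above every library without one, as for Drs in all but SU26xSU58 replicate 2, which had more Drs than SU58xZI418N replicate 2. Any part of spz in the levels of Drs was not tested. The recognition gene GNBP1 stood at 19.0 and 21.5 CPM in ZI418N, against 9.75 and 10.1 CPM in SU26, a difference of 1.02 ± 0.14 on the log2 scale (adjusted p = 0.00101).

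Among 29 other antimicrobial or immune-induced peptide genes found of 30 listed, 15 were tested. In SU58 against SU26 1 was higher and 2 were lower, and in ZI418N against SU26 1 was higher and 2 were lower, when 17.6% and 24.0% of all genes were called. The higher ones were BomS6 in SU58 (adjusted p = 0.0434) and BaraA1 in ZI418N (adjusted p = 0.0365). BomS6 missed in 9 of 19 alternatives (adjusted p up to 0.213), among them DESeq2 (0.0629), and BaraA1 in 7 of 19 (up to 0.149), among them either SU26 library left out (0.131 and 0.149). The lower ones in both cases were the drosomycin-like genes Drsl2 and Drsl3. Outside SU26, Drsl3 was at most 0.1345 CPM, under the filter minimum of about 0.269 CPM. It was tested only through SU26 (1.65 and 1.04 CPM), so that nothing is read from its calls. They were lost in 3 of 19 alternatives in SU58 and in 1 of 19 in ZI418N. Drsl2 stood at 0.114 and 0 CPM in ZI418N and 0.0807 and 0.0954 CPM in SU58, against 10.7 and 5.13 CPM in SU26, with log2 fold changes against SU26 of -7.05 ± 1.30 in ZI418N (adjusted p = 0.00467) and -6.44 ± 1.24 in SU58 (adjusted p = 0.00881). The SU58 call was lost without SU58 replicate 1 or 2 (adjusted p = 0.0993 and 0.0813) and without SU58 replicate 1 and SU26xZI418N replicate 2 together (0.0524). The cecropin genes CecA2, CecB and CecC did not exceed 0.2313 CPM in any library.

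Hemocyte and fat body markers were present in the tubule libraries. The 10 hemocyte markers summed to 8.03 and 8.88 CPM in SU26xSU58, 3.55 and 4.41 CPM in SU26xZI418N, 6.3 and 17.9 CPM in SU58xZI418N, 8.83 and 16.2 CPM in ZI418N and 13.5 and 12.3 CPM in SU58, against 22.2 and 19.0 CPM in SU26. Of these markers, He, lz and NimC4 were at or near 0 (at most 0.127 CPM), and Hml stood between 1.32 and 9.02 CPM. The crystal cell genes PPO1 and PPO2 were highest in SU26 replicate 1 (6.44 and 5.22 CPM), and Hml in SU26 replicate 2. Other markers went the other way. Pxn stood at 3.18 and 3.30 CPM in ZI418N, against 1.75 and 1.38 CPM in SU26. Sr-CI stood at 1.56 and 1.78 CPM in SU58, against 1.22 and 1.27 CPM in SU26. The 7 fat body markers summed to between 204.2 and 685.9 CPM in the hybrids, 615.7 and 1124 CPM in ZI418N and 1070 and 344.8 CPM in SU58, against 388.5 and 177 CPM in SU26, led by the yolk protein genes Yp1, Yp2 and Yp3. Fbp1 was at most 0.0923 CPM. The fat body sum was lowest in SU26 replicate 2 and highest in ZI418N replicate 2, the library with the most Drs. In SU26xZI418N, where Drs stood at 218 and 174 CPM, it was 204.2 and 311.3 CPM. The part of these cells in the levels of the peptides was not tested. The salivary gland gene LysP was at 0.0269 and 24 CPM in SU26xZI418N, 74.2 and 0.0236 CPM in SU58xZI418N and 130.5 and 17.2 CPM in ZI418N, against at most 0.0798 CPM in the other 6 libraries, and its part in the levels of Drs was not tested.

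**Figure D4:**
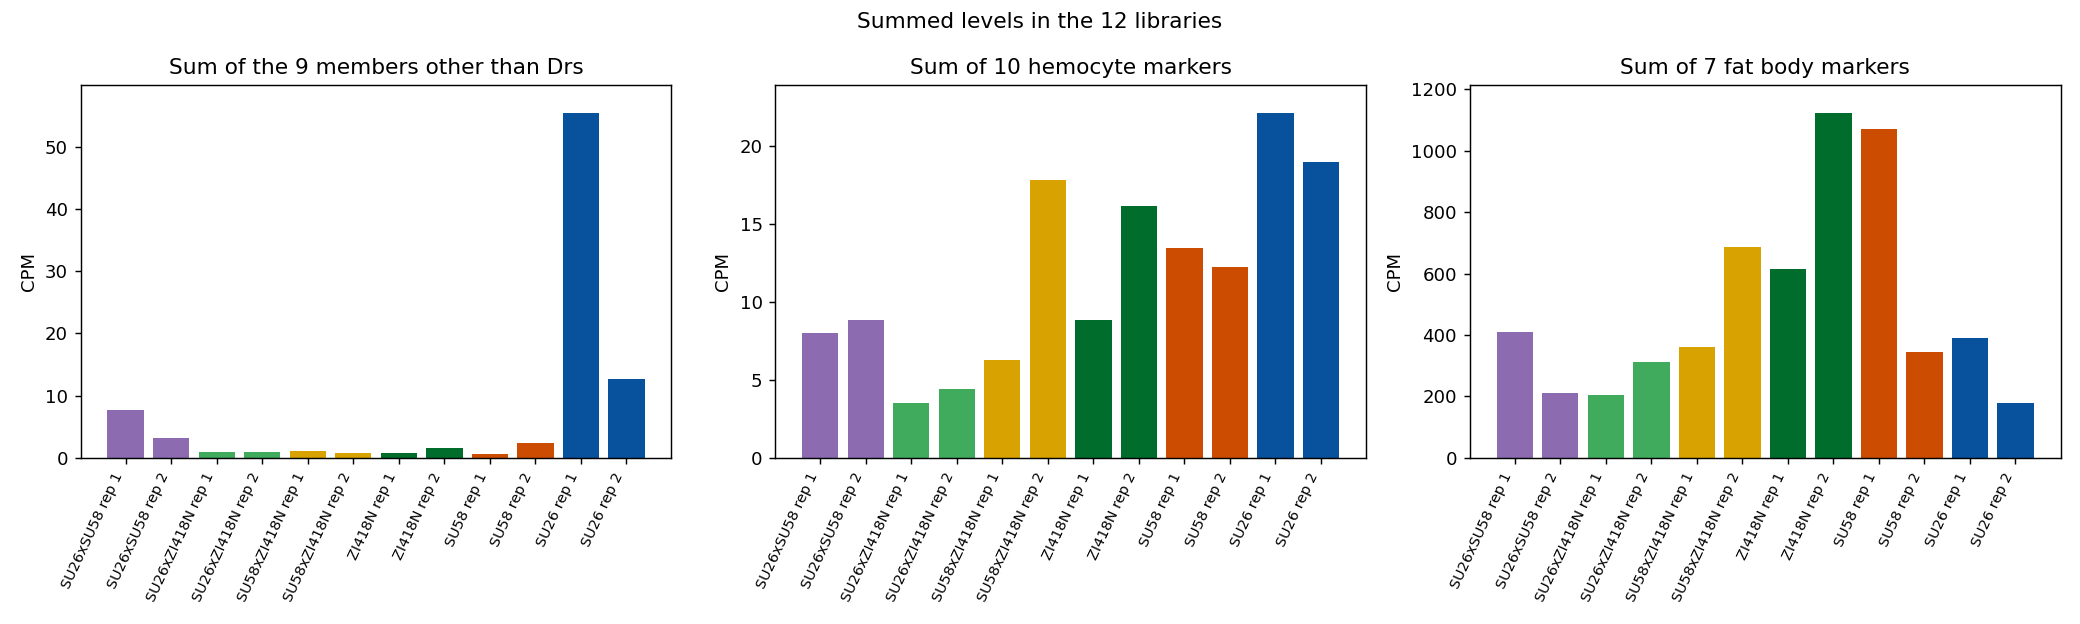
Summed CPM of the 9 members other than Drs (left), of 10 hemocyte markers (middle) and of 7 fat body markers (right) as bars for the 12 libraries, each axis starting at 0. The left sum is at most 7.64 CPM outside SU26, against 55.5 and 12.7 CPM in SU26. The hemocyte sum is also highest in SU26 (22.2 and 19.0 CPM, against at most 17.85 CPM elsewhere). PPO1 and PPO2 give 6.44 and 5.22 CPM of it in SU26 replicate 1, and not every marker is highest in SU26. The fat body sum peaks at 1124 CPM in ZI418N replicate 2.

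The genes whose log2 CPM over the 12 libraries was most like the mean standardised level of the 7 tested members were CG3277, CG10470, CG2930, ltl, Zdhhc8, ND-13A, Lsd-1 and CG14695, with Pearson's r from 0.961 for CG3277 to 0.916 for CG14695. This is a description, since all 8 share with the summary that the SU26 libraries stand apart. CG2930 stood between 467 and 584 CPM in the other genotypes, against 1121 and 909 CPM in SU26. The perilipin gene Lsd-1, whose protein coats lipid droplets, stood between 6.98 and 11.2 CPM in the other genotypes, against 29.4 and 24.1 CPM in SU26. Among the members themselves, the r with this summary was between 0.778 and 0.919 for AttB, AttC, AttD, DptA, DptB and Mtk and -0.319 for Drs.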

How the data were processed

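The values that the authors deposited are counts per gene, per the file headers, beside a gene length, for 12 poly-A libraries read as pairs of 125 bases per the labels. The sources used here do not name the aligner, the counting program, its use of strand, the build or how reads that match several genes were treated. The counts were checked to be whole numbers. Of 13919 genes, 13748 were named by identifier and 147 by CG number, and the chromosome arm equalled that of the annotation for 13746 of 13749. Total counts were 30834175 to 43479929 per library, and for genes near 3 counts counting error limits precision.

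Genes were filtered with filterByExpr (9302 kept), scaled with TMM factors and fitted with 1 mean per genotype over all 12 libraries in edgeR 4.0.16 (R 4.3.3, 6 residual degrees of freedom), with Benjamini-Hochberg adjustment over all genes and a threshold of 0.05. The SE is the absolute log2 fold change over the square root of F. DESeq2 1.42.0 was an alternative. The 2 libraries of a genotype were checked not to be copies (mean chi-square per gene at least 13.1). The fit was also run on simulated data, with the same spread for all genes and changes placed only in genes above a minimum of counts. That run does not speak for members with few counts or a wider spread. Members, lists and tests were chosen with earlier results of these data known, and hybrids against SU26 or SU58 were compared after the values were seen. All members are named, together with up to 3 called genes of each pathway list and comparison, of which a part is printed, and the 8 genes of most similar pattern. Rel, Lsd-1 and other genes given by level only were chosen after their values were seen.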

Additional observations from a re-analysis of the deposited data

How the results depend on the processing

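Results were recomputed with RLE size factors, DESeq2, no filter on low counts, the replicate number as a block, copies summed (AttA with AttB, CecA1 with CecA2), parental libraries alone, each library left out, and SU58 replicate 1 with SU26xZI418N replicate 2 left out. No scaling moved the median log2 fold change of all genes by over 0.1. Leaving out 1 library at a time, where up to 9 members passed the filter (AttA and Dro besides the 7), 1 to 5 members were called in SU58 against SU26, 1 to 9 in ZI418N against SU26, 1 to 2 in ZI418N against SU58, 0 to 1 in SU26xZI418N against the mean of its parents, 0 to 3 in SU26xSU58 against SU26, 1 to 7 in SU26xZI418N against SU26, 0 to 1 in SU58xZI418N against SU58 and 4 to 8 among the 6 genotypes. All genes called ranged, in the same order, from 492 to 1939, 1217 to 2565, 703 to 1877, 25 to 1773, 114 to 559, 503 to 2842, 58 to 324 and 1389 to 3788. They ranged from 4 to 20 in SU26xSU58 and 13 to 44 in SU58xZI418N against the means of their parents.

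With SU58 replicate 1 and SU26xZI418N replicate 2 left out, members called were 1 in SU58 against SU26 (4 with all libraries), 1 in ZI418N against SU58 (2), 0 in SU26xZI418N against the mean of its parents (1), 1 in SU26xZI418N against SU26 (7) and 4 among the 6 genotypes (7). All genes called were 618, 860, 14, 341 and 1412 in these comparisons (1639, 1573, 465, 2115 and 2476 with all libraries), 6 in SU26xSU58 against the mean of its parents (10) and 79 in SU58xZI418N against SU58 (236). DESeq2 called 2 members in SU26xZI418N against the mean of its parents and 1 in SU58xZI418N against SU58, and 69, 1302 and 85 genes in SU26xSU58, SU26xZI418N and SU58xZI418N against the means of their parents (10, 465 and 36 by edgeR), 852 in SU26xSU58 against SU26 (422) and 458 in SU58xZI418N against SU58. Without the filter, 1 member was called in SU58xZI418N against SU58, and 22 and 821 genes in SU26xSU58 and SU26xZI418N against the means of their parents. The cause of these shifts was not tested, other than that fewer libraries were fitted where some were left out.

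The replicate numbers did not pair the libraries: over 15 pairs of genotypes the correlation of deviations ran from -0.219 to 0.33, with 4 pairs over 0.1. With the replicate block, 0 members and 68 genes were called in SU26xZI418N against the mean of its parents. The log2 fold change of Drs ranged from -0.39 to 0.14 in SU58 against SU26, turning sign without SU26 replicate 1, and from -0.0102 to 1.17 in SU26xSU58 against SU26, turning sign without SU26xSU58 replicate 2.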

Other observations

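PGRP-SB1, an immune-induced peptidoglycan recognition gene chosen here after its values were seen, was between 0.0831 and 1.37 CPM in the 10 libraries outside SU26, against 9.68 and 0.835 CPM in the SU26 libraries. Of the Bomanin genes, a family of short Toll-induced peptides, BomBc2 was at 0.322 and 0.623 CPM in SU26xZI418N, 1.32 and 1.79 CPM in SU58xZI418N and 1.67 and 2.16 CPM in ZI418N, against 2.47 and 1.24 CPM in SU58 and 1.06 and 0.346 CPM in SU26. BomS1 was at 0.0269 and 0.174 CPM in SU26xZI418N, 0.178 and 0.66 CPM in SU58xZI418N and 0.766 and 1.05 CPM in ZI418N, against 0.377 and 0 CPM in SU58 and 0.198 and 0.0864 CPM in SU26. The Daisho peptide gene Dso1 was at 0.43 and 0.498 CPM in SU26xZI418N, 1.02 and 2.55 CPM in SU58xZI418N and 2.24 and 2.38 CPM in ZI418N, against 2.8 and 1.15 CPM in SU58 and 1.16 and 0.72 CPM in SU26. These genes were chosen after their values were seen, and their values were not tested against those of Drs.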
